A study of Arabidopsis thaliana with 8 samples.

Results

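The peaks described here lay just beyond the 3′ ends of genes in chromatin of Arabidopsis seedlings expressing CONSTANS (CO) with a CITRINE tag, written CO:CIT. They were the replicate 1 peaks of SUC2::CO:CIT that overlapped a replicate 2 peak by at least 1 bp and whose summit, the position of the highest signal, lay outside every annotated gene, at most 500 bp downstream of the 3′ end of a protein-coding gene and not within 1000 bp upstream of any gene start. This rule gave 1206 peaks, out of 16861 shared SUC2::CO:CIT peaks and 44204 peaks in the 4 lists. The peaks were chosen by their presence and summit position in the lists of both SUC2::CO:CIT replicates, so that the strength, number and replicate overlap of these downstream peaks are descriptions and were not tested. No further filter was applied, and all 1206 peaks were kept in every count.

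The immunoprecipitated genotypes were SUC2::CO:CIT aba1-6 and SUC2::CO:CIT, both in the Col-0 background and both carrying the same transgene, line #5. The aba1-6 mutation impairs the production of abscisic acid (ABA). Whole seedlings were grown in long days of 16 h light and 8 h dark and harvested 12 h after dawn (ZT12), with 5 g of tissue per sample. Each genotype contributed 2 ChIP libraries and 2 input libraries, the input being chromatin before immunoprecipitation. The SUC2 promoter restricts the transgene to phloem companion cells, so that the chromatin of most cells in a seedling carried no CO:CIT, and a single transgenic line limits what the genotypes can represent. Pulldowns from plants without the tag were not analysed here.

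CO is the transcription factor that links day length to flowering in Arabidopsis, where it activates the florigen gene FT in companion cells. Its CCT domain recognises CO-responsive elements that contain the word TGTG, and it does so together with NF-YB and NF-YC proteins, which belong to a family named for binding to CCAAT. Sequence just downstream of genes holds the signals at which transcripts are cleaved and polyadenylated, among them AATAAA and related A-rich words, and is rich in A and T in plants. Genes that face each other tail to tail are called convergent, and genes that follow each other on the same strand are called tandem.

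The libraries differed in depth. The genome background, in fragments expected at a position without enrichment, was 3.57 and 0.774 in replicates 1 and 2 of SUC2::CO:CIT aba1-6, against 11.2 and 10.8 in SUC2::CO:CIT, and the fewest fragments at the summit of a listed peak were 11 and 5 against 23 and 22. The SUC2::CO:CIT aba1-6 lists contained 168 and 258 peaks, against 21054 and 22724 for SUC2::CO:CIT. The lowest −log10 q of a listed peak, where lower is weaker, was 0.476 and 0.715 against 1.88 and 1.91. The lists of the genotypes therefore reached down to unlike q levels. With 2 ChIP libraries per genotype, an exact two-sided permutation test cannot give a p-value below 0.333, and no comparison between the genotypes was tested for this reason. The labels call the replicates biological.

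The sequence under these summits was made mostly of A and T. The 60 bp around the summit are printed for 8 peaks, the 2 strongest downstream peaks (scpl10 and MKK10), the 1 strong peak with a TGTG word (AT3G29630), a strong peak next to an immunity gene (CPR1), and peaks beside genes of sugar export, light perception and ABA signalling (SWEET11, SWEET12, CRY2 and OST1). Each is given 5′ to 3′ on the strand of the gene upstream of it, with coordinates of TAIR10.1. Capitals mark some of the words counted below, whereas CCAAT, which reads ATTGG on the other strand, and TATATA are left in lower case. The marked words are first the core of the CO-responsive element, TGTG, which reads CACA on the other strand. They are further AATAAA, the word of the polyadenylation signal, which reads TTTATT on the other strand. Unbroken runs of at least 8 adenines or at least 8 thymines are marked as well.
scpl10, chr2:9796873-9796932, + strand: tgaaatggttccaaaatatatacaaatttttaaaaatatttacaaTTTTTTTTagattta
MKK10, chr1:11656325-11656384, + strand: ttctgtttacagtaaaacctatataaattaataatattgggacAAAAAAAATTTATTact
CPR1, chr4:7444062-7444121, + strand: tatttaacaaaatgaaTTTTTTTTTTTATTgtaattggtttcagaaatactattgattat
AT3G29630, chr3:11446684-11446743, - strand: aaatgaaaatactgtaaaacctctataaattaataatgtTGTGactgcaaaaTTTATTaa
SWEET11, chr3:18052390-18052449, - strand: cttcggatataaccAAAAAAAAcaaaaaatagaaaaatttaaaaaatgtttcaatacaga
SWEET12, chr5:7971546-7971605, - strand: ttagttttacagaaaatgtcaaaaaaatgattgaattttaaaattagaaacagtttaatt
CRY2, chr1:1185347-1185406, - strand: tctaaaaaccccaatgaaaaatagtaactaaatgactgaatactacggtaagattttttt
OST1, chr4:16275262-16275321, + strand: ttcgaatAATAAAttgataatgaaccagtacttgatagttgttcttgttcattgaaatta

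Among the 24 peaks named for their strength or for a listed gene, the window lay outside genes for 23, and 1 of these 23 windows, that of AT3G29630, held TGTG or CACA. The share in 60 bp over all downstream peaks was not computed. The shares given further below are for windows of 100 bp, so that this count cannot be set beside them. The GC content of these 60 bp ran between 10.0% and 26.7%. Long A and T runs were visible in scpl10, MKK10, CPR1 and SWEET11, whereas the CRY2 and SWEET12 windows held none of the marked words.

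The strongest downstream peaks stood next to genes of varied function. Ranked by the lower of the 2 replicates' −log10 p, the first 15 places were held by 17 peaks because of ties. Their fold enrichment, which divides summit fragments by the local background after adding 1 to both, ran between 4.44 and 8.87 in replicate 1 and between 4.50 and 7.33 in replicate 2, on 63 to 107 and 62 to 88 fragments. Of these 17 peaks, 9 lay between convergent genes and 8 between tandem genes, at 17 to 495 bp from the 3′ end (median 317 bp), and 8 of them were higher in replicate 2. By the replicate 2 summit 14 of the 17 still met the rule, whereas scpl10 and AT2G01240 lay farther than 500 bp from the gene and AT1G59930 lay inside it.

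The peak downstream of scpl10, which encodes a serine carboxypeptidase-like protein, was first. It spanned 2158 bp in replicate 1 and 2068 bp in replicate 2, with a fold enrichment of 8.87 and 7.33 on 107 and 88 fragments. Its summit lay 495 bp beyond the 3′ end in replicate 1 but 602 bp beyond it in replicate 2, outside the limit of 500 bp, in a gap of 2348 bp before the tandem gene SCPL9, a gene of the same family. It ranked 8 among all peaks of replicate 1 and 20 among those of replicate 2, so that it was strong in both libraries.

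The second peak lay between MKK10, a MAP kinase kinase, and HSFA1D, a heat shock transcription factor, which converge. Its fold enrichment was 6.90 and 7.10 in replicates 1 and 2, on 83 fragments in each, and its summit was 282 bp from the end of MKK10 and 609 bp from the end of HSFA1D. The replicates differed less here than at scpl10.

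Further strong peaks stood beside genes with well described roles. The summit downstream of CPR1, an F-box protein that limits the accumulation of immune receptors, had a fold enrichment of 6.08 and 5.41 in replicates 1 and 2, and the summits of the replicates were 14 bp apart. The summit between SPPL2, a signal peptide peptidase-like protease, and YDA, a MAP kinase kinase kinase of embryo and stomatal patterning, had 5.58 and 5.49. The summit between CPFTSY, a receptor of the chloroplast signal recognition particle pathway, and a noncoding RNA gene had 5.42 and 5.66, with the replicates 9 bp apart. TPPF, annotated as a hydrolase of the haloacid dehalogenase superfamily and known as a trehalose-6-phosphate phosphatase, had 5.71 and 5.66 at 472 bp from its end.

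One strong peak faced a flowering gene at a distance. It lay 363 bp downstream of AT2G17760, an aspartyl protease gene, with a fold enrichment of 5.58 and 5.66 in replicates 1 and 2. The next gene in tandem was BZIP27, a bZIP transcription factor related to the FT partner FD, but its start was 5957 bp away from the summit in a gap of 6319 bp.

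Peaks of this rank were also found beside poorly characterised genes. AT2G13463, an uncharacterised protein, had a fold enrichment of 5.83 and 6.08 in replicates 1 and 2. AT5G23690, of the polynucleotide adenylyltransferase family, had 5.75 and 6.17. AT4G05091, an uncharacterised gene converging with a retroelement-derived gene, had 6.40 and 5.83. The 3 pairs of values each differed by less than 1 between the replicates.

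The remaining strong peaks covered a similar range. AT1G26380, a berberine bridge enzyme-like oxidase, had 6.32 and 5.44 in replicates 1 and 2 at only 60 bp from its end. AT1G26580, a protein with an ELM2 domain, had 5.34 and 5.58 under peaks of 1220 and 1177 bp. AT3G29630, a UDP-glycosyltransferase, had 5.25 and 5.75. All of these lay within the range of the 17 strongest given above.

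The last 3 peaks of this group were tied, at a −log10 p of 26.7 in replicate 2. They were ARL2, a relative of the gravitropism gene ARG1, with 5.58 and 5.32 in replicates 1 and 2, AT2G01240, a reticulon-like protein, with 5.99 and 5.32, and AT5G04045, a putative membrane lipoprotein, with 6.57 and 5.32. The summits of AT2G01240 were 363 bp apart between the replicates, with that of replicate 2 at 713 bp from the gene end, the only pair among the 17 more than 150 bp apart. AT1G59930, a MADS-box gene, had the lowest fold enrichment of the group, 4.44 and 4.50 on 88 and 77 fragments, over a local background of 19.0 and 16.3 fragments, above the genome background in both libraries. Its neighbour AT1G59920 is also a MADS-box gene, and how reads from similar copies were shared between them was not tested.

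**Figure D1:**
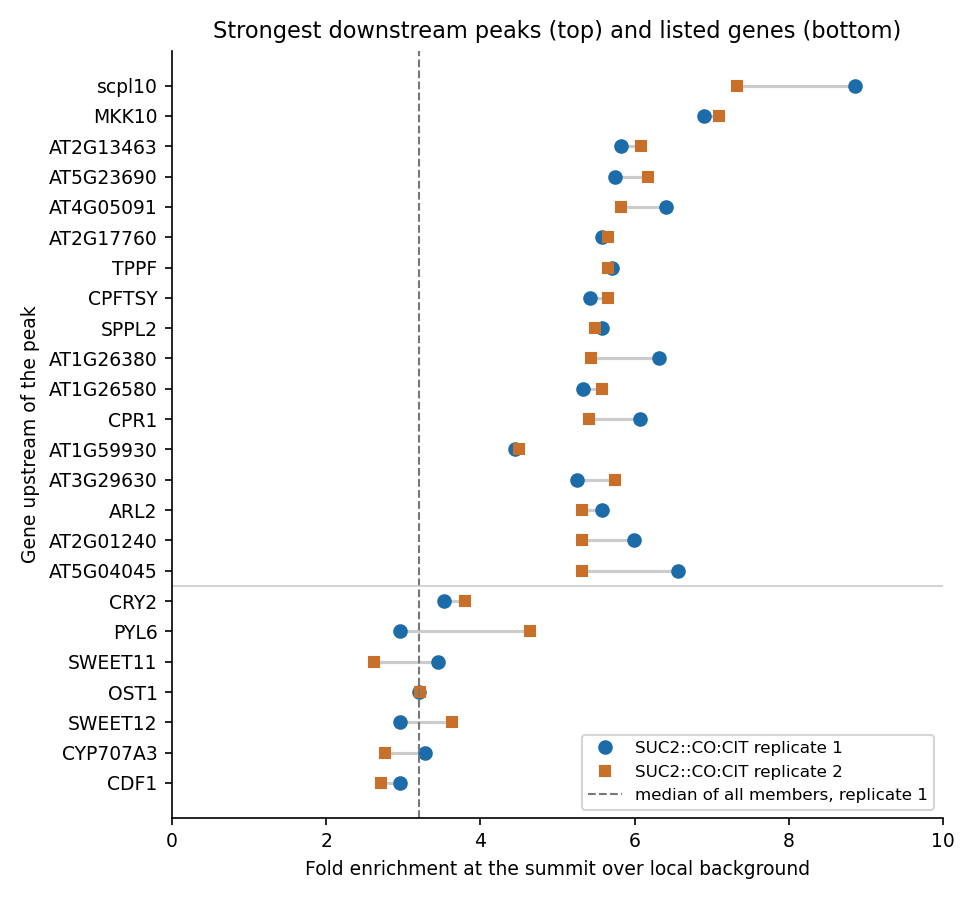
Fold enrichment at the summit (x axis, ratio to the local background) of the 17 strongest downstream peaks (above the line) and of the 7 peaks beside listed genes (below it), each named by the gene upstream of it. Circles are SUC2::CO:CIT replicate 1, squares replicate 2, the grey bar joins them, and the dashed line is the replicate 1 median of all 1206 peaks, 3.20. The strongest peaks lie at 4.44 and above in both replicates, and those of the listed genes lie between 2.96 and 3.53 in replicate 1 and between 2.62 and 4.65 in replicate 2.

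Most downstream peaks were much weaker than these. The median fold enrichment was 3.20 in replicate 1 (quartiles 2.79 and 3.78, range 1.97 to 8.87) and 3.30 in replicate 2 (quartiles 2.87 and 3.89, range 1.95 to 7.33). These medians corresponded to 38 and 39 fragments at the summit. The medians of the other 15655 shared peaks were 3.28 and 3.38. The difference (downstream minus other) was -0.0821 in replicate 1 and -0.0841 in replicate 2, with a mean of -0.083. One fragment was worth 0.0821 and 0.0845 of fold enrichment at the genome background, so that the difference amounted to about 1 fragment. Medians move in such steps, and the closeness of the 2 differences does not measure the spread between replicates. A −log10 q of at least 10 in both replicates was reached by 294 downstream peaks (24.4%), against 27.8% of all shared peaks, and a −log10 q of at least 5 by 76.8% of them, against 76.5% of the other shared peaks.

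The peaks were narrow, with a median width of 324 bp in replicate 1 and 345 bp in replicate 2, against 340 and 366 bp for the other shared peaks. The local background stood more than 1.1 times above the genome background at 16 of them (1.33%) in replicate 1 and at 23 (1.91%) in replicate 2, against 1.48% of the other shared peaks in each.

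The replicates placed these peaks at similar positions and ranked them alike only in part. The summits of the 2 replicates were a median of 52 bp apart, the same distance as for the other shared peaks, and 595 pairs (49.3%) lay within 50 bp. More than 300 bp separated 87 pairs (7.21%), against 9.03% of the other shared peaks. Fold enrichment was higher in replicate 2 at 638 peaks (52.9%). Across the 1206 peaks the log2 fold enrichments of the replicates had a Pearson correlation of 0.61 and a Spearman correlation of 0.57, against 0.62 and 0.59 for the other shared peaks. These points share the same 2 libraries and are limited by counting error on few fragments, and the correlation is a description.

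**Figure D2:**
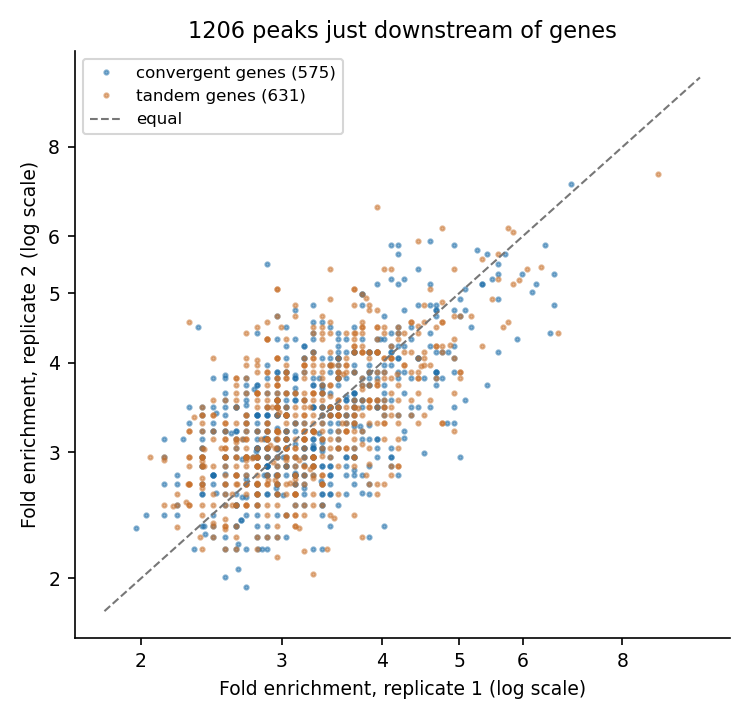
Fold enrichment of each of the 1206 downstream peaks in replicate 1 (x axis) and replicate 2 (y axis) of SUC2::CO:CIT, both on log scales, coloured by whether the neighbouring genes converge (575 peaks) or run in tandem (631 peaks). The cloud lies around the dashed line of equal values, centred at 3.20 and 3.30, and the steps in it are single fragments.

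Peaks at such places that were called in only 1 replicate were weaker. Of 1548 replicate 1 peaks at such places, 77.9% overlapped a replicate 2 peak, against 80.1% of all replicate 1 peaks, a share the rule itself used. Of 1604 replicate 2 peaks at such places, 72.9% overlapped a replicate 1 peak. The 342 and 434 that did not had a median fold enrichment of 2.75 in replicate 1 and 2.70 in replicate 2. By their replicate 2 summits, 989 of the 1206 peaks (82.0%) would again have been placed just downstream of genes, 80 (6.63%) inside protein-coding genes, 111 (9.20%) in other intergenic sequence and 25 (2.07%) within 1000 bp upstream of a gene. The class of a peak thus depended on the replicate in the remaining cases.

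Convergent and tandem genes flanked these peaks in similar numbers. The neighbours converged at 575 peaks (47.7%) and ran in tandem at 631 (52.3%), whereas no peak lay between divergent genes, which the rule excludes. Sequence satisfying the rule measured 1937332 bp between convergent and 1888055 bp between tandem genes, with 2.97 and 3.34 summits per 10 kb. This difference in density was not tested. Both neighbours were protein-coding at 923 peaks (76.5%). The gaps between genes had a median of 1334 bp at the convergent peaks and 2269 bp at the tandem ones, where the rule requires more than 1000 bp to the next start. Fold enrichment was alike in both arrangements, with medians of 3.28 and 3.30 (replicates 1 and 2) at convergent peaks and 3.20 and 3.30 at tandem peaks.

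Between convergent genes, peaks were scarce in short gaps. A downstream peak was present in 1.45% of 1729 gaps of up to 250 bp, in 5.71% of 736 gaps of 251 to 500 bp, in 16.1% of 830 gaps of 501 to 1000 bp, in 23.8% of 759 gaps of 1001 to 2000 bp and in 26.8% of 608 longer gaps. Longer gaps contain more sequence that satisfies the rule, but the density also differed, at 1.49, 1.65, 2.73, 3.47 and 3.90 summits per 10 kb of such sequence in the same order of gap length. The gaps of up to 250 bp had a mean GC content of 31.7% and those over 2000 bp one of 29.8%. The distance from the summit to the nearer gene had a median of 0.146 of the gap. Of the 575 peaks, 91 (15.8%) lay in the third of the gap around its centre. The limit of 500 bp from a gene end leaves the middle of long gaps out by construction. The same shares over all sequence satisfying the rule were not computed, so these values do not show a preferred place.

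Few gaps held more than 1 downstream peak. Other shared peaks in the same gaps were not counted. Of 9340 gaps with sequence that satisfies the rule, 1173 (12.6%) held a peak, 1140 of them with 1 peak and 33 with 2. Of the 27444 protein-coding genes, 1282 (4.67%) had a downstream peak within 500 bp of the 3′ end, and 81 peaks were within that distance of 2 genes. Only 5 genes had 2 peaks. At LCR65, a gene for a small cysteine-rich protein, the summits lay 34 and 399 bp beyond the end, with 2.79 and 3.28 in replicate 1, and both overlapped a single replicate 2 peak of 630 bp with 3.63. At AT1G52700, an alpha/beta-hydrolase gene, the 2 summits of replicate 1 had 2.46 and 2.55 and likewise overlapped 1 replicate 2 peak, with 3.55. At ARP7, an actin-related protein of chromatin remodelling complexes, the 2 peaks were separate in both replicates, with 2.87 and 3.80 (replicates 1 and 2) at 131 bp and 2.46 and 3.21 at 491 bp.

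The distance from the 3′ end ran over the whole range allowed, with a median of 222 bp and quartiles of 111 and 357 bp. There were 273, 275, 236, 206 and 216 peaks in the successive 100 bp from the gene end outwards. Per 10 kb of sequence satisfying the rule, the density was 2.64 in the first 100 bp and 3.74 in the last, with values between 3.21 and 3.27 in the 3 intervals between. The sequence of the first 100 bp had a mean GC content of 31.0% and that of the last 30.2%. If each position carried the density of its GC class, the same intervals would hold 265, 258, 241, 229 and 213 peaks. The interval farthest from its computed number was the fourth, with 206 peaks against 229.

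**Figure D3:**
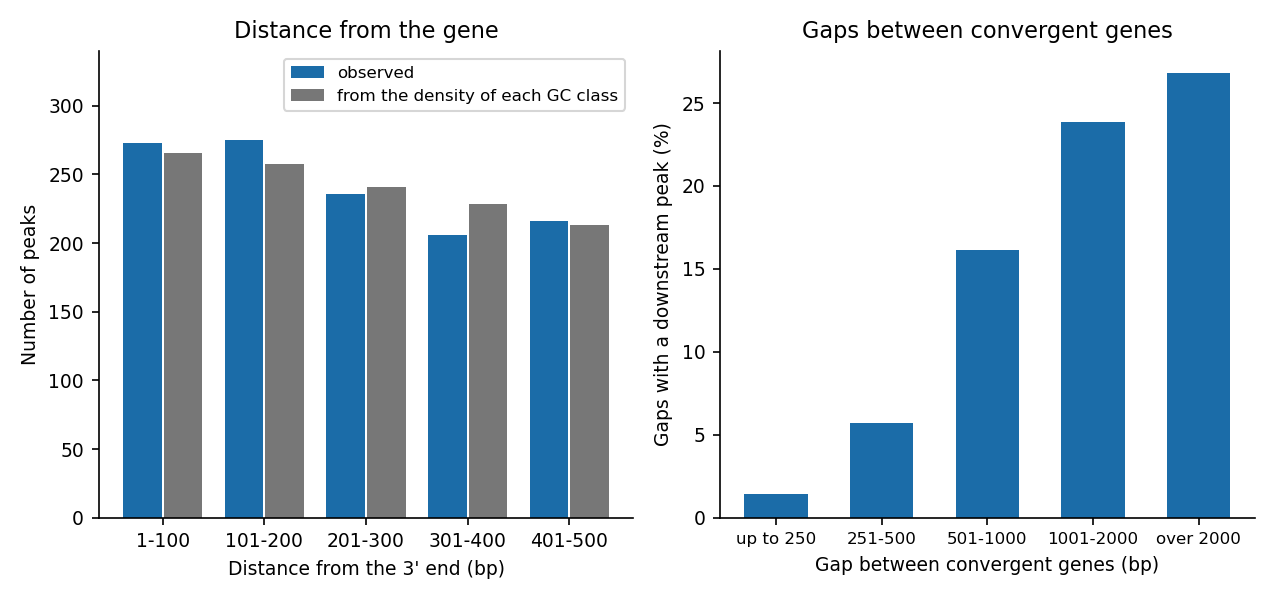
Left, number of downstream peaks by distance of the summit from the 3′ end (bp), observed (blue) and computed from the summit density of each GC class (grey). Right, share of gaps between convergent genes that held a downstream peak (%), by length of the gap (bp), between 1.45% in the shortest and 26.8% in the longest.

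The peaks nearest to the limits of the rule were of mixed strength on both sides. Just inside 500 bp, AT1G35170 and AT5G28450 had summits at 500 bp with a fold enrichment of 3.12 and 2.70, and 2.71 and 2.70, in replicates 1 and 2. Just outside, AT3G30805 and WRKY38 had summits at 502 bp with 4.93 and 3.97, and 3.53 and 4.31. Just inside the limit of 1000 bp from a gene start, GPAT8 and AT1G51020 lay 1001 and 1005 bp from the nearest start, with 3.69 and 4.82, and 3.12 and 2.79. Just outside, AT3G50150 and AT5G03944 lay at 999 and 998 bp, with 3.86 and 3.13, and 5.34 and 5.41, the last of these as strong as some of the 17 strongest downstream peaks. A further 1114 shared peaks lay within 500 bp downstream of a gene but were left out because they were also within 1000 bp upstream of a gene start.

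Downstream peaks lay in the AT-richest sequence behind genes. The 200 bp around the summits had a mean GC content of 21.4% ± 3.43 by replicate 1 and 21.4% ± 3.51 by replicate 2 (SD over 1206 peaks), against 21.0% and 21.1% for the other shared peaks. All sequence satisfying the rule, 3826887 bp or 3.21% of the 5 chromosomes, averaged 30.7%. A GC content below 25% was found at 1017 summits (84.3%) of replicate 1 and at 999 (82.8%) of replicate 2, against 14.9% of that sequence, and no replicate 1 summit was above 32.0%.

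The density of downstream peaks was 30.6 per 10 kb at 15 to 20% GC, 14.6 at 20 to 25%, 1.60 at 25 to 30% and 0.110 at 30 to 35%, with 0 peaks at 35% and above. Shared peaks in the 1000 bp upstream of genes had 32.3, 14.3, 1.85, 0.0606 and 0.0019 per 10 kb in the same classes. Below 15% GC the values were 19.6 downstream and 32.3 upstream, but the downstream value rests on 28 peaks. Over all sequence the density was 3.15 downstream and 3.78 upstream, a ratio of 0.833. Standardised over these GC classes the ratio was 0.963. By the replicate 2 summits it was 0.809 over all sequence and 0.934 when standardised. Sequence upstream of genes thus had the higher density in all 4 calculations, by a smaller margin when standardised for GC class. These calculations share the same 2 libraries. Within classes the direction was mixed, with the higher density downstream at 20 to 25% and 30 to 35% GC and upstream in the others.

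**Figure D4:**
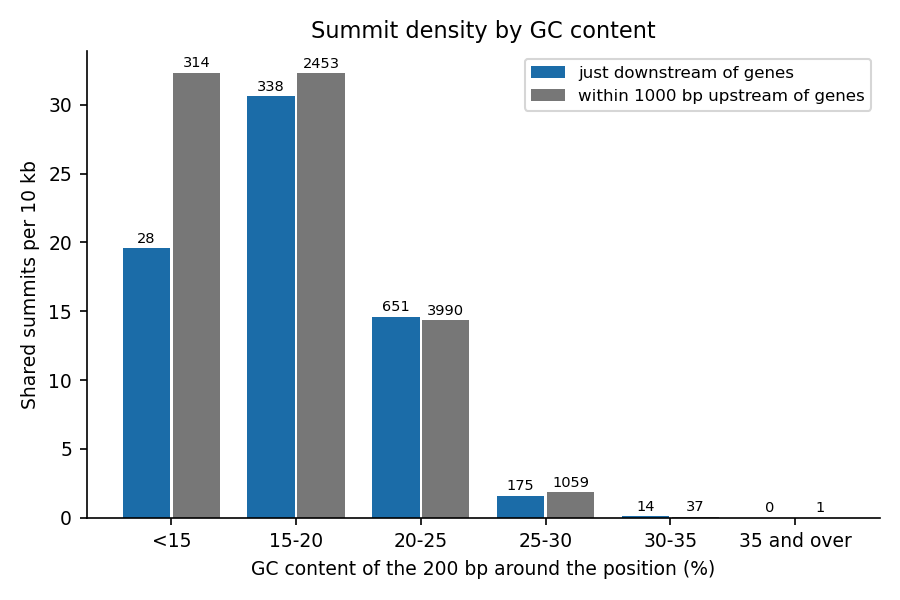
Shared summits per 10 kb of sequence (y axis) by GC content of the surrounding 200 bp (x axis, %), just downstream of genes (blue, left) and within 1000 bp upstream of genes (grey, right), with the number of peaks above each bar. Both are lower in each successive class above 20% GC, and below 15% GC the downstream bar rests on 28 peaks.

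The dip in GC content was centred on the summit in both replicates and its flanks were unequal. In 50 bp windows oriented along the gene upstream, the mean was 19.7% in replicate 1 and 19.6% in replicate 2 over the summit. At 500 bp toward the gene it was 36.6% and 36.2%, where the windows mostly entered the gene, and at 500 bp away from it 29.9% and 30.2%. Around the other shared peaks the replicate 1 mean was 19.4% at the summit and 31.9% at 500 bp on both sides. On the strand of the gene, A made up 39.8% and T 40.5% of the bases at the replicate 1 summits.

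Words of the CO-responsive element were scarcer at the summits than beside them. TGTG or CACA, the same word on either strand, was present in the 100 bp at 408 summits (33.8%) of replicate 1 and at 412 (34.2%) of replicate 2, against 33.9% of the other shared peaks and 48.7% of all positions satisfying the rule. The number per kb at the summit was 0.599 of that in flanks 300 bp to either side in replicate 1 and 0.590 in replicate 2. When positions of the same GC content were used, the share expected was 32.9%, so that the sign of the difference turned. The longer word CCACA or TGTGG was present at 5.14% and 4.64% of the summits by replicates 1 and 2, against 12.4% of all positions and 4.94% of positions of the same GC content. TGTGG contains TGTG, so that both counts share sites.

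CCAAT or ATTGG, the word bound by the NF-Y complex, was present at 13.3% of the summits by either replicate, against 13.5% of the other shared peaks, 19.8% of all positions and 13.8% at the same GC content. Its frequency at the summit was 0.691 and 0.653 of that in the flanks in replicates 1 and 2. At positions of matched GC content the shares of these words were thus closer to those at the summits than over all positions.

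**Figure D5:**
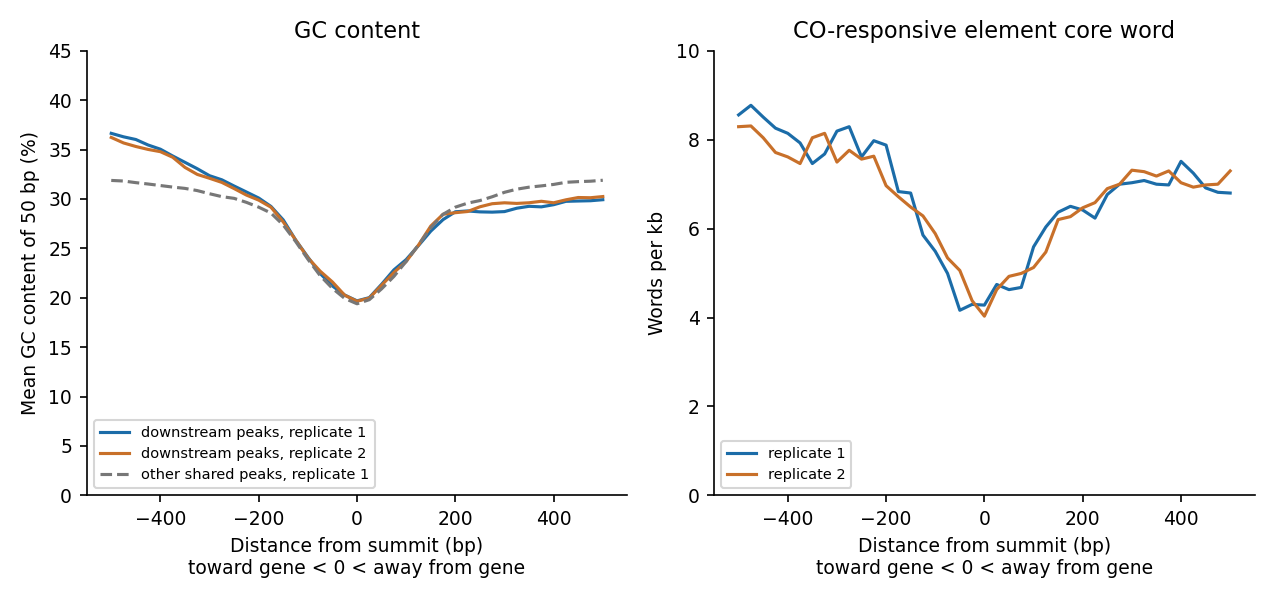
Mean values in 50 bp windows around the summits of the 1206 downstream peaks, by distance from the summit (bp) along the gene upstream of the peak (negative toward the gene). Left, GC content (%), with a minimum of 19.7% in replicate 1 and 19.6% in replicate 2 and the other shared peaks as a dashed line; right, number of CO-responsive element core words per kb on either strand, 4.28 and 4.03 at the summit.

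Words made of A and T went the other way. AATAAA, the word of the polyadenylation signal, or TTTATT was present at 54.7% and 55.5% of the summits (replicates 1 and 2). It was present at 55.2% of the other shared peaks, 55.7% of the upstream peaks and 28.4% of all positions. At the same GC content the share was 51.6%. The frequency of AATAAA or TTTATT was 2.28 and 2.32 times that in the flanks. The replicate 1 summits lay outside annotated genes, and whether these words serve as signals there was not tested. Runs of at least 8 A or 8 T were present at 31.3% and 30.8% of the summits, against 28.0% of the other shared peaks, 11.6% of all positions and 22.6% at the same GC content. TATATA, which reads the same on both strands, was present at 17.1% and 19.7% of the summits, against 19.6% of the other shared peaks. It was present at 14.0% of all positions but at 28.2% of those at the same GC content. At equal GC content over 200 bp the summits therefore held more unbroken A or T runs and less alternating TATATA than other sequence behind genes. The words were counted in the central 100 bp, where the mean GC content of the summits was lower, at 20.1%. The GC content of the matched positions in that smaller window was not computed, so that a remaining difference in composition was not tested. AATAAA and runs of A can overlap, and so their counts are not independent.

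Genes with a downstream peak often had a peak in front of them as well. Of the 1282 genes, 468 (36.5%) had a shared summit in the 1000 bp upstream of the start, against 26.9% of all protein-coding genes and 29.3% of the 11191 genes that had sequence satisfying the rule but no downstream peak. This was a difference between groups of genes in the same libraries and was not tested.

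Of 88 genes in 4 lists for flowering, ABA and the phloem, 7 had a downstream peak within 500 bp of the 3′ end, which is 7 of the 41 that had sequence satisfying the rule. Over all protein-coding genes the share was 4.67%, or 10.3% of those with such sequence. In the list of photoperiodic flowering and clock genes 2 of 47 had one, CRY2 and CDF1, and 21 had such sequence. In the list of ABA synthesis, breakdown and signalling 3 of 31 had one, PYL6, OST1 and CYP707A3, and 17 had such sequence. In the phloem list 2 of 5 had one, SWEET11 and SWEET12, and 3 had such sequence. The 5 NF-Y genes had neither. The counts are small and nothing particular to a list can be read from them.

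CRY2 encodes a blue light receptor that stabilises the CO protein. Its downstream peak, in the gap before the tandem gene AT1G04390, had a fold enrichment of 3.53 and 3.80 on 42 and 44 fragments in replicates 1 and 2, with the summit 135 bp beyond the 3′ end in replicate 1. It was the strongest of the 7 by the lower of the replicates, in place 251 of 1206, though its summits were 147 bp apart. CDF1, a DOF factor that represses transcription of CO, had 2.96 and 2.70 at 458 bp from its end, with the highest GC content of the 7 in replicate 1, 28.5%. Neither gene had a shared summit in the gene or in the 1000 bp upstream of it.

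The peaks at the ABA genes differed in how well the replicates matched. PYL6, an ABA receptor, had 2.96 and 4.65 in replicates 1 and 2, on 35 and 54 fragments, the largest difference between replicates among the 7. OST1, a protein kinase of ABA signalling that acts in stomatal closure, had 3.20 and 3.21 at 467 bp from its end, and the peak was called at nearly the same strength in both libraries. CYP707A3, an enzyme that breaks down ABA, had 3.28 and 2.76. In replicate 2, PYL6 was above the upper quartile of all downstream peaks and CYP707A3 below the lower one. OST1 and CYP707A3 each had a shared peak upstream, at 182 and 559 bp from the start, with 3.04 and 4.06 for OST1 and 3.04 and 2.96 for CYP707A3.

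SWEET11 and SWEET12 encode sucrose exporters of phloem parenchyma cells that act in phloem loading. SWEET11 (chromosome 3, 18052466 to 18054832, reverse strand) had its downstream summit 46 bp beyond the 3′ end, with a fold enrichment of 3.45 and 2.62 on 41 and 30 fragments in replicates 1 and 2. SWEET12 (chromosome 5, 7971647 to 7973995, reverse strand) had it at 71 bp, with 2.96 and 3.63 on 35 and 42 fragments. The order of the genes thus turned between the replicates. Both summits lay in convergent gaps, of 687 bp before GSA2 and of 545 bp before AT5G23650. SWEET12 also had a shared peak 694 bp upstream of its start, with 2.55 and 2.37, whereas SWEET11 had none in the gene or in the 1000 bp upstream.

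In the aba1-6 background none of the 1206 peaks was found again. Of these peaks, 0 overlapped a peak of SUC2::CO:CIT aba1-6 in replicate 1 and 0 in replicate 2. Over all shared peaks the shares were 0.0593% and 0.083%. The 1206 peaks share 1 library per replicate and are not independent, so no upper limit was derived from these counts. The nearest peak was 1564 bp away in replicate 1 and 460 bp away in replicate 2. Depth bears on this count. The fragments of replicate 1 of SUC2::CO:CIT scaled to the backgrounds of the SUC2::CO:CIT aba1-6 libraries gave a median of 12.1 (range 7.66 to 34.2) in replicate 1 and 2.63 (range 1.66 to 7.41) in replicate 2. The fewest fragments of a listed peak were 11 and 5, in lists that reached down to a −log10 q of 0.476 and 0.715. These numbers were reached by 844 peaks (70.0%) at the depth of replicate 1 and by 13 (1.08%) at that of replicate 2. This scaling assumes an equal share of immunoprecipitated fragments and leaves out counting error, which would carry some summits above the number needed and others below it. Lower binding and lower recovery of DNA cannot be told apart.

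The peaks of the named genes were no exception. At the depth of SUC2::CO:CIT aba1-6 replicate 1, the 17 strongest peaks would have held 20.1 to 34.2 fragments and the 7 peaks of listed genes 11.2 to 13.4, all at or above 11. At the depth of replicate 2 they would have held 4.36 to 7.41 and 2.42 to 2.91 fragments.

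Conversely, 2 of the 168 peaks of SUC2::CO:CIT aba1-6 replicate 1 (1.19%) lay just downstream of genes by the same rule, with a fold enrichment of 3.43 and 3.72 on 15 to 16 fragments, and 0 of the 258 peaks of replicate 2 did. The GC content around the summits of these 2 peaks averaged 35.5%, a level at which no SUC2::CO:CIT downstream peak was found.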

How the data were processed

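Chromatin from SUC2::CO:CIT aba1-6 and SUC2::CO:CIT seedlings was immunoprecipitated through the tag (GFP-Trap) and sequenced. Reads were trimmed (fastp), aligned to TAIR10.1 (Bowtie2) and used by the authors for peak calling (macs2), separately for each ChIP library and its matching input. The paper then kept the smaller set of peaks that passed an irreproducible discovery rate and lay outside blacklisted regions. Neither filter was applied here, and which of the downstream peaks would pass them was not examined. Versions of these tools are not given in the sources used here. The deposited fold enrichment is a ratio with a pseudocount of 1 added to both terms, which lowers the values of shallow libraries most. The deposited p-values and q-values are on a −log10 scale, as macs2 wrote them, and the deposited integer score was left aside. Summits were placed with the deposited offset in the last column.

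Fragments at each summit were recovered from fold enrichment and p-value (tolerance 0.001 or a share of 1e-05 of the −log10 p), for at least 98.2% of the peaks in each list and for 100% of 2000 simulated peaks. Peak lists carry no read totals, and no intervals are given. Gene models and sequence were from RefSeq, assembly TAIR10.1, whose chromosome names match the lists. GC content was taken over 200 bp, and words over 100 bp with flanks at 300 bp. Words were standardised in GC classes of 2%. Density ratios and the numbers computed by distance used the broader GC classes for which densities are given, within which GC content can still differ. The comparisons of words and of density ratios at the same GC content were added after seeing the data. Named genes were those beside the 15 strongest peaks, listed genes, genes with most peaks, and peaks at the limits. The rule also named peaks overlapping one of aba1-6, of which there were 0. Peaks and lists were chosen with earlier results of these data known. Python 3.11.15, numpy 2.4.6, pandas 2.3.3, scipy 1.17.1 and matplotlib 3.10.9 were used.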

Additional observations from a re-analysis of the deposited data

How the results depend on the processing

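The number of downstream peaks depended on the distance allowed and on strength, with 784 within 300 bp, 1984 within 1000 bp and 294 at a −log10 q of at least 10, against 1206. With a single replicate list it was 1548 without SUC2::CO:CIT replicate 2 and 1604 without replicate 1. The difference in median fold enrichment, -0.083 (downstream minus other shared peaks), was -0.0804 without the pseudocount and -0.103 at a −log10 q of at least 5, and without replicate 1 or replicate 2 it was -0.0841 or -0.0821. Mean GC content, 21.4%, was 20.1% over 100 bp, 24.2% over 400 bp and 21.4% without replicate 1. The ratio of TGTG or CACA at the summit to the flanks, 0.599, was 0.650 with flanks at 200 bp, 0.584 at 500 bp, 0.632 in windows of 200 bp and 0.590 without replicate 1. The convergent share, 47.7%, was 43.4% with protein-coding neighbours only, 51.7% within 300 bp, 44.5% within 1000 bp and 47.9% by replicate 2 summits. Within 500 bp, 1 peak had a peak of aba1-6, against 0 by overlap. Within 1000 bp, 12 listed genes had a peak, against 7.

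Alternatives chosen after seeing the data used positions of the same GC class, with GC content taken over 200 bp. The share of summits with TGTG or CACA minus that of other positions, -14.9 percentage points, was then 0.931, and that of TATATA, 3.04, was then -11.1. The density ratio to upstream peaks, 0.833, was 0.963, or 0.934 by replicate 2 summits, and 0.809 without replicate 1 over all sequence. No paired analysis was possible because the SUC2::CO:CIT aba1-6 lists held 0 of these peaks, so that no value could be paired across the genotypes. Fold enrichments step by single fragments, which limits small differences.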
